A study of Saccharomyces cerevisiae with 18 samples.

Results

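Loss of TMA64 was followed over both media and both TMA20 genotypes. Lysates of Δtma64 and ΔΔtma20tma64, each from YPD and from SD, lacked the gene, and they were set against lysates of wt and Δtma20 from the same media, with 2 biological replicates for wt in YPD. Each lysate gave a Ribo-Seq library, in which ribosome footprints are counted, and an RNA-Seq library, in which mRNA fragments are counted, so that 4 of 9 lysates, and 8 of 18 libraries of the series, lacked TMA64. All strains were Saccharomyces cerevisiae BY4741, MATa his3Δ1 leu2Δ0 met15Δ0 ura3Δ0. In Δtma64 the gene was replaced with KanMX4 (tma64Δ::KanMX4), in Δtma20 the TMA20 gene was (tma20Δ::KanMX4), and ΔΔtma20tma64 carried tma64Δ::HygMX4 with tma20Δ::KanMX4. YPD is rich medium and SD is synthetic medium, and all cells met cycloheximide, which stalls elongating ribosomes, before they were harvested. The comparison therefore treats the 4 lysates as replicates of the deletion once medium and TMA20 are accounted for, and no second clone of a deletion strain was given.

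TMA64 encodes the yeast counterpart of mammalian eIF2D (ligatin), and TMA20 and TMA22 encode the counterparts of MCT-1 and DENR, which together resemble eIF2D split over a pair of proteins. In yeast these factors clear the small ribosomal subunit, with any deacylated tRNA on it, from mRNA after a stop codon has been read and the large subunit has left. The question asked here is what changed where TMA64 was deleted, at either TMA20 genotype and in either medium. It was asked of mRNA levels, of footprints and of translation efficiency, which is the number of footprints relative to mRNA.

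The short region between TMA64 and APC4 is shown first, since APC4 was the uniquely countable gene, other than the deleted one, whose footprints fell. TMA64 (YDR117C) lies on the reverse strand of chromosome IV from 683946 to 685643 (R64), and APC4 (YDR118W) on the forward strand from 685882 to 687840, each in 1 coding exon. They are divergent neighbours with 238 bases between their start codons (685644 to 685881, 39.1% G and C). The windows around both starts and the ATG triplets upstream of APC4 on its own strand are given below from the R64 RefSeq sequence, 5′ to 3′, with start and stop triplets in capitals.
TMA64 start, chrIV:685626-685655, reverse strand: attagtacagctATGtttaagaaggagcct
APC4 start, chrIV:685870-685899, forward strand: actcaagacgaaATGtcgtctcctattaat
upstream ATG 1, chrIV:685699-685707: ATGtgtTAA
upstream ATG 2, chrIV:685719-685742: ATGtgttatttcacggtttttTAG
upstream ATG 3, first 30 bases of chrIV:685797-685856: ATGgagcacagaatgcgttcaattcgattt
upstream ATG 4, first 30 bases of chrIV:685809-685856: ATGcgttcaattcgatttatcagaagacgt
Each of the 4 reading frames ends before the APC4 start, and they hold 2, 7, 19 and 15 codons before the stop. The first is in frame with APC4 and the others are not. The start of APC4 transcripts in these strains is not known from gene counts. The presence of these triplets in the transcripts was therefore not tested here. From read coverage of these libraries, the study reports a shifted start of APC4 transcription where a cassette replaces TMA64. It proposes a longer 5′ untranslated region in which further upstream reading frames are translated. Every lysate without TMA64 carried such a cassette, so that loss of the factor and the cassette were not tested apart.

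The deletion itself was clear in every library. With TMA64 present its footprints stood at 67.3, 69.9 and 58.3 CPM (normalised read counts, relative to all ORF counts of a library scaled by TMM factors) in wt in YPD (replicates 1 and 2) and wt in SD, and at 72.1 and 83.1 CPM in Δtma20 in YPD and SD. Without TMA64 they stood at 0.174 and 0.152 CPM in YPD and SD for Δtma64, and at 0.777 and 0.23 CPM for ΔΔtma20tma64, which are 1 to 6 reads. RNA-Seq counted 533 to 978 reads of TMA64 with the gene and 0 to 7 without it. The groups did not overlap in either assay.

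Depth differed more in Ribo-Seq than in RNA-Seq. RNA-Seq libraries held 5608491 to 11388027 counts on 6713 ORFs. Ribo-Seq libraries held 1668588 to 8516836 counts with TMA64 and 5072702 to 23532664 without it, and the shallowest, at 1668588 and 2337313 counts, were the SD libraries of Δtma20 and of wt. Genes of a cells were expressed in all libraries (STE2, the receptor for α-factor, at 204.6 CPM of footprints or more), and the α-factor gene MF(ALPHA)1 reached 1.45 CPM at most. LEU2, MET17 and URA3 reached at most 0.585 CPM, and HIS3, of which the his3Δ1 allele keeps a part, was counted in all (98.3 CPM of footprints or more).

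Footprints of very few genes changed with TMA64 loss. Of 5369 ORFs that passed the low-count filter in Ribo-Seq, 3 fell and 0 rose at an adjusted p under 0.05 (edgeR quasi-likelihood test with Benjamini-Hochberg adjustment over all ORFs), which is 0.0559% of those tested. The 3 were TMA64 itself, its neighbour APC4 and YHR218W. At an unadjusted p under 0.05 there were 114 higher and 166 lower ORFs, 5.22% in all (2.12% and 3.09%). The DESeq2 Wald test called 6 lower and 0 higher.

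APC4, a scaffold subunit of the anaphase-promoting complex, the ubiquitin ligase that drives exit from mitosis had fewer footprints in every lysate without TMA64. The libraries with TMA64 counted 117 (wt in YPD, replicate 1), 102 (replicate 2), 19 (wt in SD), 146 (Δtma20 in YPD) and 28 (Δtma20 in SD) footprints. Those without it counted 23 in YPD and 35 in SD for Δtma64, and 13 in YPD and 83 in SD for ΔΔtma20tma64. Scaled to depth, these were 14.9, 16.4, 8.33, 17.4 and 16.4 CPM with TMA64 against 4.0, 2.66, 2.53 and 3.18 CPM without. All 4 lysates without TMA64 were thus below the lowest lysate with it, and wt in SD stood apart from the other lysates with TMA64. In bulk cultures, fewer cells that translate APC4 and fewer footprints per cell cannot be told apart. The log2 fold change was −2.18 ± 0.22 (SE, 95% interval −2.65 to −1.70, edgeR adjusted p = 0.000238). An exact permutation test over the 9 lysates, which took no account of strain or medium, gave two-sided p = 0.00794. That is the smallest that 4 against 5 lysates allow. It restates the lack of overlap, seen for 0.782% of the 5369 ORFs tested, and is no separate support.

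The mRNA of APC4 did not follow its footprints. It stood at 44.2, 51.4, 46.1, 46.9 and 42.8 CPM with TMA64 and at 54.0, 49.4, 48.2 and 49.0 CPM without. These groups overlapped, and the log2 fold change was 0.13 ± 0.08 (SE, 95% interval −0.05 to 0.32, edgeR adjusted p = 1.0). Footprints relative to mRNA were 0.336, 0.318, 0.18, 0.371 and 0.383 with TMA64 and 0.074, 0.0539, 0.0525 and 0.0648 without. In translation efficiency APC4 was the only one of 5935 ORFs that passed (0.0168% of those tested, log2 fold change −2.31 ± 0.21, SE, edgeR adjusted p = 8.27e-06), with 134 ORFs (2.26%) at an unadjusted p under 0.05. The call of APC4 was lost in the SD lysates alone (−2.22, edgeR adjusted p = 0.143) and in the lysates with TMA20 alone (−1.98, adjusted p = 0.0615). The DESeq2 Wald test called YHR218W as well.

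**Figure D1:**
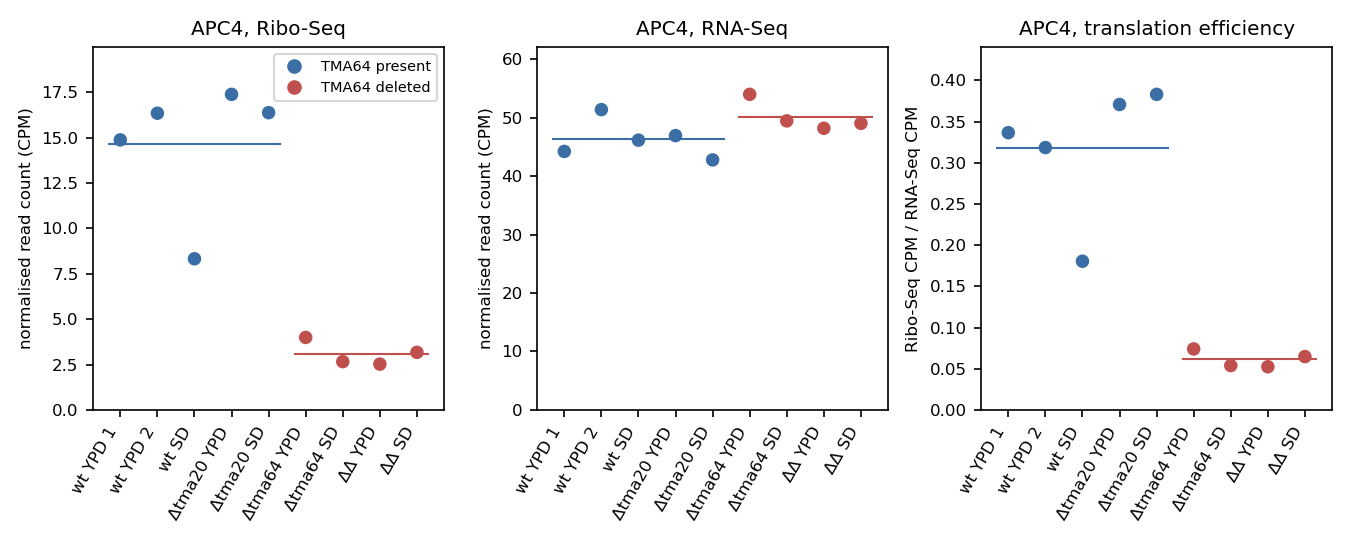
APC4 in each lysate: footprints and mRNA as normalised read counts (CPM) and translation efficiency as their ratio, against strain and medium. Points are lysates and bars are means over the 5 lysates with TMA64 (blue) or the 4 without (red); ΔΔ is ΔΔtma20tma64. In Ribo-Seq and in the ratio every red point lies below every blue one. In RNA-Seq the colours overlap, and all points together span 42.8 to 54.0 CPM.

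The fall of APC4 was seen in each matched pair of lysates. Between lysates of the same medium and TMA20 genotype the log2 ratio of footprint CPM was −1.97 for Δtma64 against wt in YPD, −1.65 for the same strains in SD, −2.78 for ΔΔtma20tma64 against Δtma20 in YPD and −2.37 for these in SD. Fits on separate sets of lysates gave −2.29 in YPD alone, −2.06 in SD alone, −1.83 where TMA20 was present and −2.54 where it was deleted. Neither modifier passed: the change of the effect was 0.29 ± 0.45 (SE, 95% interval −0.69 to 1.27, edgeR adjusted p = 0.872) in SD relative to YPD, and −0.36 ± 0.41 (SE, 95% interval −1.24 to 0.52, adjusted p = 0.85) without TMA20 relative to with it. The sign of the former turned without wt in SD (−0.13) and without ΔΔtma20tma64 in YPD (−0.14). At this depth, changes of the effect inside these intervals were not detectable. Without the wt lysate in SD, whose 19 footprints are the fewest of the libraries with TMA64, APC4 remained called.

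YHR218W, an ORF near the end of chromosome VIII (558014 to 559924, forward strand, 2 coding exons), had 6, 11, 13, 12 and 22 footprints with TMA64 and 0, 3, 0 and 2 without. Its log2 fold change was −6.04 ± 0.63 (SE, edgeR adjusted p = 0.000238), but 0% of its windows of footprint length are unique in the genome, so that the reads cannot be assigned to it with certainty, and its RNA-Seq counts were 0 to 5 in every library. The largest values were those of the shallow SD libraries (5.7 CPM in wt and 12.9 CPM in Δtma20). Without both of these libraries the log2 fold change was −6.75 but did not pass (edgeR adjusted p = 0.999), and in the lysates with TMA20 alone it was −4.66 (adjusted p = 0.205).

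The other subunits of the anaphase-promoting complex did not move with APC4. All 13 subunits were tested in Ribo-Seq and 1 passed. The other 12 had log2 fold changes of footprints from −0.30 (DOC1, which helps the complex bind substrates) to 0.11 (APC9), with a median of 0.01 against 0.00479 for all ORFs. They include APC2 and APC11, the catalytic core, and CDC23 and CDC27, tetratricopeptide subunits that bind the activators. In RNA-Seq none of the 13 passed, with log2 fold changes from −0.08 to 0.31. Of 6 activators and inhibitors and 19 substrates none passed in footprints. The activator CDC20 stood at 0.12 ± 0.09 (SE) and the securin PDS1 at −0.13 ± 0.11. CLB2, the main mitotic cyclin and a substrate of the complex, had 59.6 to 70.8 CPM of footprints with TMA64 and 70.9 to 81.4 CPM without, so that its groups did not overlap, but the log2 fold change of 0.22 ± 0.08 did not pass (edgeR adjusted p = 0.911), and its mRNA overlapped. Groups failed to overlap for 21 higher and 21 lower ORFs, 0.782% of the 5369 tested.

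Of the 6 ORFs on each side of TMA64, APC4 was the only one that passed. MRPL1, a mitochondrial ribosomal protein gene that starts 364 bases from TMA64 on its other side, had a log2 fold change of footprints of −0.12 ± 0.10 (SE). VBA4, the next gene beyond APC4, stood at 0.16 ± 0.08 in footprints and 0.22 ± 0.09 in mRNA, and ALT2 at 0.22 ± 0.10 in footprints, none of which passed (edgeR adjusted p = 0.911 for VBA4 and ALT2 in Ribo-Seq). YDR114C was too low to be tested in Ribo-Seq. Under TMA20 loss none of the 6 ORFs on each side of TMA20 passed, among them PAC2, which lies 153 bases away.

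**Figure D2:**
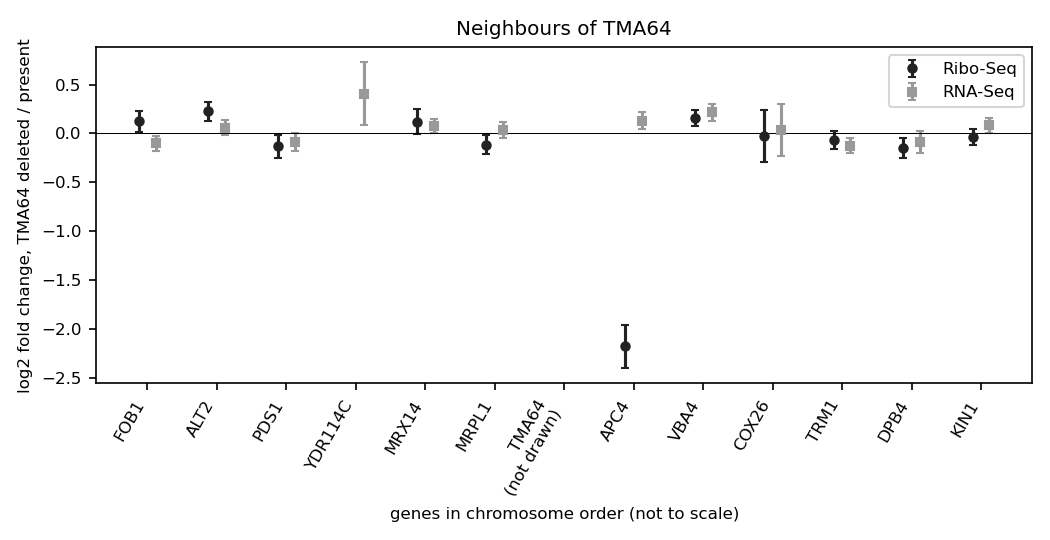
Log2 fold change with TMA64 loss (SE bars) of the 6 ORFs on each side of TMA64, in chromosome order and not to scale, in Ribo-Seq (black circles) and RNA-Seq (grey squares). TMA64 is left out, at −8.01 in Ribo-Seq. APC4 in Ribo-Seq, at −2.18, stands apart below the other points, and its RNA-Seq value is 0.13.

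In RNA-Seq, TMA64 was the only ORF of 5966 that passed (0.0168% of those tested), with 133 ORFs (2.23%) at an unadjusted p under 0.05, and DESeq2 called the same gene alone. TMA22, which encodes the partner of TMA20, and SUI1, which encodes eIF1, passed in neither assay. RLI1, the ABC protein that splits the ribosome before the small subunit is cleared, stood at 0.20 ± 0.10 (SE, edgeR adjusted p = 0.911) in footprints, and its mRNA ranged from 142.4 to 275.4 CPM with overlapping groups. TMA20 had 149.1 and 123.4 CPM of footprints in Δtma64, which overlapped the 125.4 to 154.6 CPM of wt.

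The estimates, which average over media and TMA20 genotypes, were narrow enough to bound most genes. The median SE of a log2 fold change was 0.112 in Ribo-Seq, 0.0972 in RNA-Seq and 0.158 in translation efficiency. The 95% interval lay within a 2-fold change in either direction for 94.6%, 96.2% and 84.5% of the ORFs. For the change of the effect with medium the shares were lower, at 77.4% in Ribo-Seq and 80.4% in RNA-Seq. For its change with the TMA20 genotype they were 81.3% and 80.3%.

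Genes that did not pass are given here for the smallest p among well-counted ORFs of the same sign in all sets of lysates. Their constant sign was thus a condition of choice and is no result. INO1, the inositol-3-phosphate synthase that is expressed where inositol is scarce, was low in YPD (0.389 to 2.29 CPM of footprints) and in SD had 125.8 (wt) and 81.9 CPM (Δtma20) with TMA64 and 81.3 (Δtma64) and 29.8 CPM (ΔΔtma20tma64) without it. Its log2 fold change was −0.95 ± 0.18 (SE, edgeR adjusted p = 0.182). LAS17, which activates the Arp2/3 complex of actin patches, had 67.1, 58.0, 101.3, 67.9 and 83.1 CPM with TMA64 and 48.8, 58.8, 52.1 and 61.4 CPM without, with some overlap (log2 fold change −0.48 ± 0.10, SE, adjusted p = 0.299). VRP1, which works with LAS17 at actin patches, stood at −0.45 ± 0.12 (SE, adjusted p = 0.911). COX23, needed for cytochrome oxidase assembly, had 15.1 to 25.2 CPM with TMA64 and at most 13.8 CPM without, with no overlap (−0.54 ± 0.14, SE, adjusted p = 0.911). The DESeq2 Wald test called INO1, LAS17 and TDH2, each with an adjusted p of 0.0499.

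On the higher side UBP9, a ubiquitin-specific protease, had 6.14 to 11.2 CPM of footprints with TMA64 and 9.97 to 14.6 CPM without, with some overlap (log2 fold change 0.57 ± 0.18, SE, edgeR adjusted p = 0.911). DML1, involved in mitochondrial inheritance, stood at 0.53 ± 0.15 and SPC24, a kinetochore subunit, at 0.42 ± 0.12 (SE, edgeR adjusted p = 0.911 for both), also with overlap. MIN9 had 17.5 to 25.7 CPM of footprints with TMA64 and 26.5 to 34.4 CPM without, and its groups did not overlap (log2 fold change 0.42 ± 0.11, SE, edgeR adjusted p = 0.911). TRM3, which methylates the ribose of a guanosine in tRNA, had 78.4 to 93.3 CPM with TMA64 and 94.7 to 117 CPM without, again with no overlap (0.29 ± 0.09, SE, adjusted p = 0.911). PMP1, a small regulator of the plasma membrane proton pump, stood at 0.38 ± 0.09 (SE, adjusted p = 0.575). In RNA-Seq the smallest p belonged to YRO2, a plasma membrane protein of the HSP30 family, at 0.47 ± 0.10 (SE, adjusted p = 0.879), and EDC2, an activator of mRNA decapping, stood at 0.28 ± 0.08 (SE, adjusted p = 1.0).

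Of 33 lists of genes that describe pathways and cell types, no member other than TMA64 and APC4 passed in any of the main comparisons. The lists were chosen with earlier results of these data known. In Ribo-Seq the 20 genes of glycolysis and fermentation had a median log2 fold change of −0.18 beside 0.00479 for all ORFs, and 10 of them were lower at an unadjusted p under 0.05, beside 3.09% of all ORFs lower at that threshold. TDH2, a glyceraldehyde-3-phosphate dehydrogenase, had 4162, 3325, 2161, 3056 and 2047 CPM with TMA64 and 3142, 1694, 2155 and 1023 CPM without (−0.50 ± 0.11, SE, edgeR adjusted p = 0.496). It shares much of its sequence with its paralogs, and 45.4% of its windows of footprint length are unique. ADH1, alcohol dehydrogenase, stood at −0.27 ± 0.07 (SE, adjusted p = 0.911), and the groups overlapped for both genes. In RNA-Seq the same list had a median of 0.03.

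The 137 cytosolic ribosomal protein genes had a median of −0.06 in footprints and of 0.01 in mRNA. In footprints 13 of them were lower at an unadjusted p under 0.05, beside 3.09% of all ORFs. For 27 genes of termination, recycling and rescue, the median was 0.01, and TMA64 was the member that passed. The 29 initiation factors had a median of −0.02. The 32 targets of general amino acid control had a median of −0.04, and GCN4, their activator, stood at −0.25 ± 0.23 (SE, adjusted p = 0.92). For 25 genes with known upstream reading frames the median was −0.07, with 1 higher (all ORFs 2.12%) and 4 lower (all ORFs 3.09%) at an unadjusted p under 0.05. The 36 genes of the general stress response had a median of 0.04 in footprints and 0.22 in mRNA, where 8 were higher at an unadjusted p under 0.05, beside 1.58% of all ORFs.

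Genes were also grouped by how their ORFs end, since the small subunit is cleared after the stop codon. The median log2 fold change of footprints was 0.00185 for 2370 ORFs that end in TAA, −8.4e-05 for 1083 that end in TAG and 0.00978 for 1437 that end in TGA. Over 49 last sense codons with 30 ORFs or more, the medians lay between −0.06 (GCT, 122 ORFs) and 0.06 (ACA, 60 ORFs). These medians cover ORFs at an average of at least 3 log2 CPM, TMA64 left out, and are given as a description, with no test. Footprints were counted over the whole ORF, so that a change at the stop codon or beyond it cannot be read from them.

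The effect of TMA64 loss was compared between media. No ORF passed for a change of the effect with medium in Ribo-Seq or in RNA-Seq (0% called in each, with 419 ORFs, or 7.8%, and 468, or 7.84%, at an unadjusted p under 0.05, and 0 and 8 calls by DESeq2). In SD alone, 193 ORFs passed in Ribo-Seq (41 higher and 152 lower) and 293 in RNA-Seq, of which 167 were lower, while in YPD alone 3 and 1 passed. Among the former were INO1 (−1.02), LAS17 (−0.62), VRP1 (−0.80), TDH2 (−0.68), ADH1 (−0.42), PMP1 (0.52) and GCN4 (−0.49). Each medium has few lysates, so that these fits estimate the spread from very few degrees of freedom. In SD, Ribo-Seq depth also went with the TMA64 genotype. It was 2337313 (wt) and 1668588 counts (Δtma20) with TMA64, against 12443741 (Δtma64) and 23532664 counts (ΔΔtma20tma64) without. The part of depth in the SD calls was not tested. Of 187 ORFs other than TMA64 and APC4 called in SD and tested in YPD in Ribo-Seq, 108 had the same sign in YPD (57.8%) and 0 were called there, beside a same-sign share of 51.5% over all ORFs at an average of at least 3 log2 CPM. In RNA-Seq 58 of 291 did (19.9%), beside 39% over such ORFs. Across ORFs at an average of at least 3 log2 CPM, the log2 fold changes of YPD and SD, which share no library, had a Pearson r of 0.0267 in Ribo-Seq (4887 ORFs) and −0.373 in RNA-Seq (5401 ORFs) once TMA64 and APC4 were left out. The points are genes of the same libraries, so that r is given as a description.

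The 2 TMA20 genotypes likewise share no library. Without TMA20, 186 ORFs passed in Ribo-Seq (111 higher and 75 lower), and with TMA20 present 3 did. Of 184 of the former tested in both, 71 had the same sign with TMA20 present (38.6%, beside 47.5% over all ORFs at an average of at least 3 log2 CPM), and 1 was called in both sets. It was RTC3, which was lower with TMA20 and higher without it. The Pearson r between genotypes was −0.0806 in Ribo-Seq (4894 ORFs) and −0.19 in RNA-Seq (5401 ORFs).

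**Figure D3:**
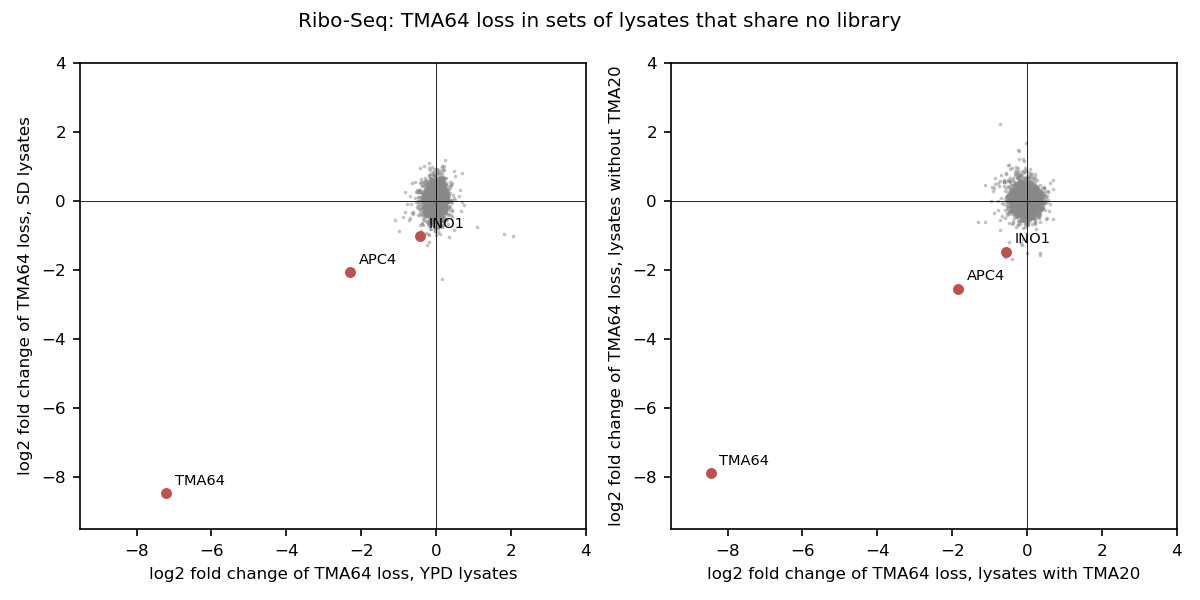
Log2 fold change of footprints with TMA64 loss in sets of lysates that share no library: YPD against SD (left) and TMA20 present against deleted (right), for ORFs at an average of at least 3 log2 CPM, TMA20 left out. TMA64 and APC4 lie far down both axes (APC4 at −2.29 and −2.06, and at −1.83 and −2.54). INO1, which was chosen for a constant sign, is lower in all sets. The remaining points form a cloud around zero with little relation between sets.

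A change of the effect with the TMA20 genotype was called for 8 ORFs in Ribo-Seq, all with a more positive effect of TMA64 loss where TMA20 was deleted (0.149% of 5369 tested), and for none in RNA-Seq (109 ORFs, or 1.83%, at an unadjusted p under 0.05, and 0 calls by DESeq2). They were GRE1, SPI1, RTC3, PLN1, WHI2, NNR2, STF2 and TPS1. Of these, 3 were on the list of 36 general stress response genes, of which 23 were higher at an unadjusted p under 0.05, beside 5.23% of all ORFs. The list had a median interaction of 0.92 beside 0.00824 for all ORFs. The 39 nuclear genes of the respiratory chain had a median of 0.40, with 15 higher at that threshold. Both lists were chosen with earlier results of these data known, so that their shares and medians are no separate support.

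RTC3, a stress-induced protein implicated in RNA metabolism, shows the pattern. Its footprints stood at 107.8 and 99.6 CPM in wt in YPD and at 55.8 CPM in Δtma64, but at 59.6 CPM in Δtma20 and 80.3 CPM in ΔΔtma20tma64. In SD the values were 460.3 (wt), 237.4 (Δtma64), 290.7 (Δtma20) and 385.2 CPM (ΔΔtma20tma64). In each medium the single deletions were thus below wt and ΔΔtma20tma64 lay between them and wt. The interaction was 1.36 ± 0.16 (SE, edgeR adjusted p = 0.0034), and in mRNA it was 0.70 ± 0.19 (SE, adjusted p = 0.983).

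SPI1, a cell wall protein induced in stationary phase, had 37.6 and 29.3 CPM in wt in YPD, 18.8 in Δtma64, 21.3 in Δtma20 and 38.5 in ΔΔtma20tma64, and 116.2, 77.8, 99.4 and 159.3 CPM in the same strains in SD (interaction 1.51 ± 0.21, SE, edgeR adjusted p = 0.0123). TPS1, trehalose-6-phosphate synthase, had 776.2 and 688.8 CPM in wt in YPD, 557.7 in Δtma64, 529.1 in Δtma20 and 742.6 in ΔΔtma20tma64, and 1122, 717.7, 811.9 and 1039 CPM in SD in the same order (0.93 ± 0.16, SE, adjusted p = 0.0425). WHI2, a regulator of the general stress response, stood at 69.3 and 63.2 CPM in wt in YPD, 60.8 in Δtma64, 35.7 in Δtma20 and 72.5 in ΔΔtma20tma64, and 53.0, 54.0, 34.5 and 60.8 CPM in SD (1.02 ± 0.18, SE, adjusted p = 0.0435). Its matched ratios with TMA20 present were near zero (log2 of −0.12 in YPD and 0.03 in SD), unlike those of the other 7 genes, which were below zero in both media. STF2 and TPS1 are named although they lie outside the rule for named genes, since all 8 calls are given.

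**Figure D4:**
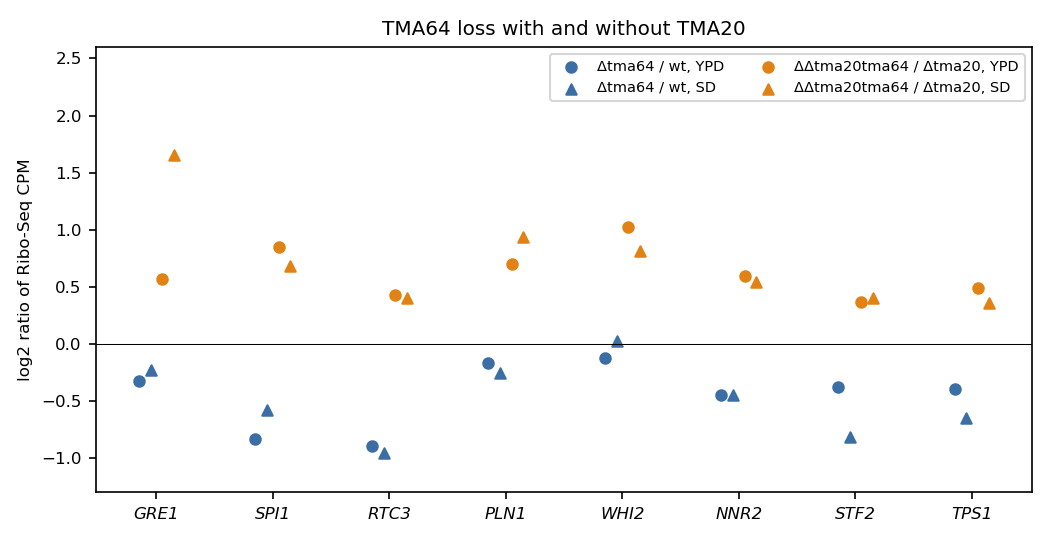
Log2 ratio of footprint CPM between matched lysates for the 8 genes whose response to TMA64 loss changed with the TMA20 genotype. Blue points compare Δtma64 with wt and orange points ΔΔtma20tma64 with Δtma20, circles in YPD and triangles in SD. All orange points are above zero, and all blue points are below zero except WHI2 in SD, at 0.03.

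None of the 8 passed without Δtma20 in YPD or without ΔΔtma20tma64 in SD, although their interactions stayed between 0.859 (TPS1) and 1.88 (GRE1) in the former and between 0.885 (PLN1) and 1.47 (SPI1) in the latter, beside 0.93 to 1.71 with all lysates. GRE1 was at 1.24 in the latter and at 1.11 without Δtma20 in SD, where it did not pass either, and 145 ORFs passed without wt in SD, the 8 included. The sign of each of the 8 was positive under all alternatives examined. Each alternative refits all or most of the libraries in which the 8 were called, so that the constant sign is no separate support.

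Loss of TMA64 was set against loss of TMA20 in the same model. The effects differed for 6 ORFs in Ribo-Seq (1 higher and 5 lower with TMA64 loss, 0.112% of those tested) and 3 in RNA-Seq (0.0503%), the deleted genes included. Both effects are measured against the same wt and ΔΔtma20tma64 lysates. APC4 was lower with TMA64 loss relative to TMA20 loss by a log2 difference of −2.38 ± 0.31 (SE, edgeR adjusted p = 0.00259). RLI1 differed by −1.03 ± 0.14 (SE, adjusted p = 0.00323): it had 262.8 and 241.1 CPM of footprints in Δtma64, beside 189.4 to 215.8 CPM in wt and 425.2 to 609.3 CPM in the lysates without TMA20. YBR191W-A, a small ORF with 0.381 to 13.5 CPM of footprints, differed by −2.62 ± 0.44 (SE, adjusted p = 0.0276). In RNA-Seq, YRO2 was higher with TMA64 loss by 1.12 ± 0.15 (SE, adjusted p = 0.0239), with 206.3 and 166.1 CPM in Δtma64, 128.6 to 162.5 in wt and 89.4 and 80.2 in Δtma20. The calls of APC4 and RLI1 in this contrast were lost without Δtma20 in SD (adjusted p = 0.0616 and 0.052), and APC4 also without Δtma20 in YPD (0.0541). Those of YBR191W-A and YRO2 were lost in 5 omissions of a lysate each, both Δtma20 lysates among them.

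The RNA-Seq reads keep their strand, and the deposited counts include those on the strand opposite to each gene. On that strand 4396 ORFs passed the filter, and 5 rose and 0 fell with TMA64 loss (0.114% called). No RefSeq gene overlaps any of the 5 on the opposite strand. The reads may arise anywhere within the ORF's bounds, and gene counts do not place them.

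Opposite to DRE2 (YKR071C, chromosome XI, 574934 to 575980), a protein of cytosolic iron-sulfur cluster assembly, there were 12, 6, 11, 6 and 10 reads with TMA64 (in the order wt in YPD 1 and 2, wt in SD, Δtma20 in YPD and in SD) and 64, 87, 236 and 159 without (Δtma64 in YPD and SD, ΔΔtma20tma64 in YPD and SD). The log2 fold change was 3.51 ± 0.25 (SE, edgeR adjusted p = 6.57e-09). The ΔΔtma20tma64 lysates were the highest. On the sense strand neither the mRNA nor the footprints of DRE2 passed.

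RMD9 (YGL107C, chromosome VII, 304333 to 306273), a mitochondrial RNA-binding protein, had 12, 3, 9, 5 and 4 opposite reads with TMA64 and 23, 30, 70 and 65 without (2.48 ± 0.31, SE, edgeR adjusted p = 7.19e-05). Opposite to EFT2, a gene of elongation factor 2, there were 0, 0, 1, 0 and 1 reads with TMA64 and 18, 42, 52 and 29 without. Of its windows of footprint length 4.48% are unique, because its paralog EFT1 is nearly identical, and opposite to EFT1 there were at most 1.05 CPM. YRF1-1, a subtelomeric helicase gene with 0% unique windows, had 0 to 4 opposite reads with TMA64 and 12 to 52 without. Reads of EFT2 and YRF1-1 cannot be assigned with certainty. The groups did not overlap for any of these genes, which were named because they passed on the same reads. The share of all ORFs without overlap was not computed for the opposite strand in either assay.

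SIP3 (YNL257C, chromosome XIV, 160631 to 164320), a sterol transfer protein of membrane contact sites, had the smallest change in RNA-Seq: 47, 18, 24, 19 and 26 opposite reads with TMA64 against 42, 54, 129 and 60 without (1.17 ± 0.23, SE, edgeR adjusted p = 0.0438). The call was lost in 9 of 15 alternatives. In Ribo-Seq, however, footprints opposite to SIP3 rose from 3, 1, 0, 2 and 1 to 56, 121, 133 and 452, or from at most 0.585 CPM to between 9.21 and 25.9 CPM, and the groups did not overlap. Opposite to DRE2, footprints were 0, 0, 0, 1 and 0 with TMA64 and 3, 12, 2 and 22 without. Opposite to EFT2 and RMD9 there were at most 6 footprints in any library. The footprints on the sense strand of SIP3 did not pass.

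**Figure D5:**
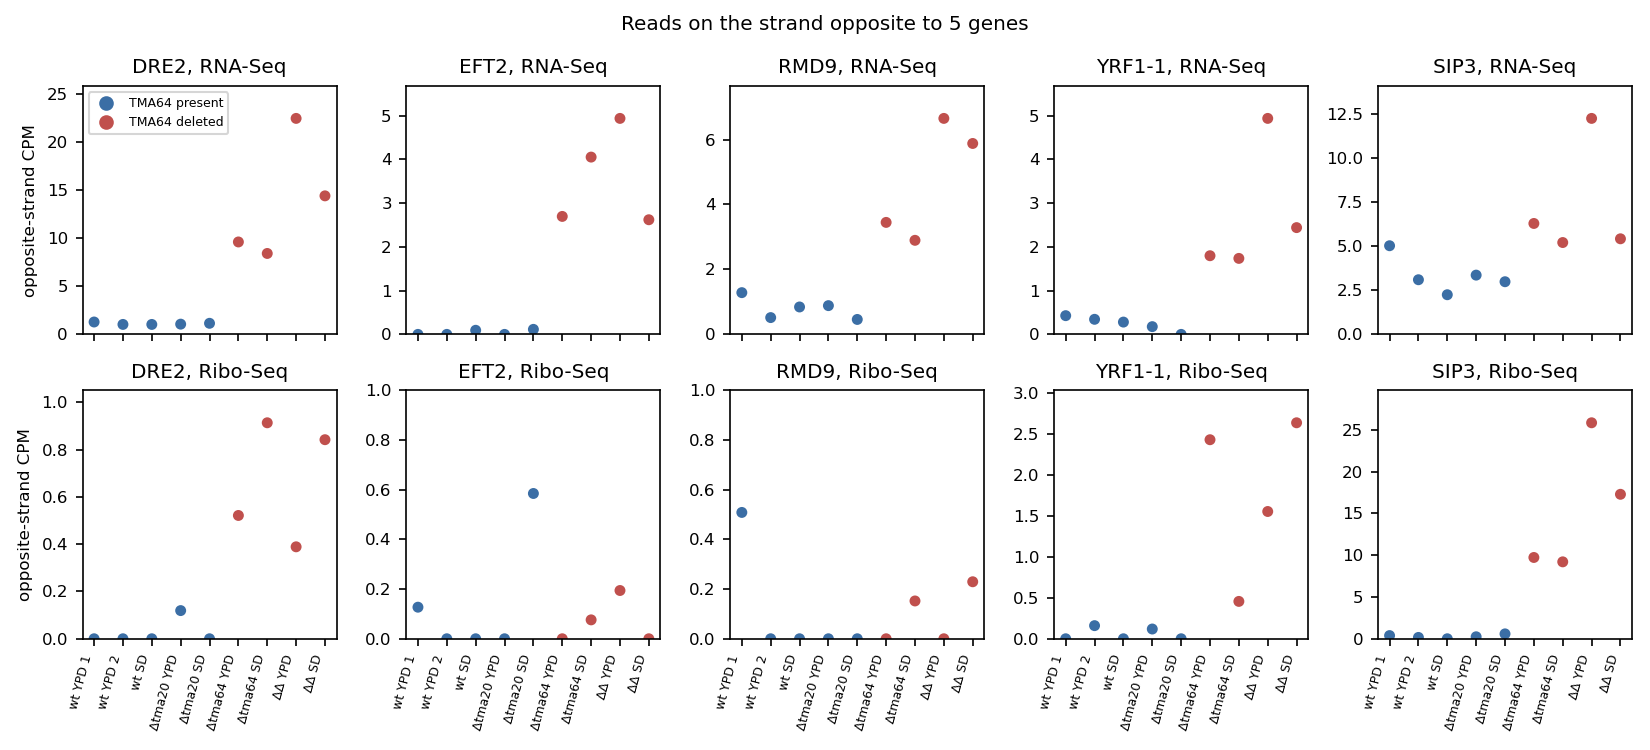
Reads on the strand opposite to 5 genes in each lysate, in CPM of the sense libraries, in RNA-Seq (top) and Ribo-Seq (bottom), each panel with its own axis from 0. In RNA-Seq every lysate without TMA64 (red) lies above every lysate with it (blue) for all 5 genes. In Ribo-Seq SIP3 reaches 9.21 to 25.9 CPM without TMA64, and EFT2 and RMD9 stay at or below 0.585 CPM.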

How the data were processed

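RNA-Seq and Ribo-Seq were compared over 9 lysates, with 4 lacking TMA64. The authors trimmed reads with cutadapt 1.18, aligned them with STAR 2.5.3a to R64-1-1 (Ensembl 90) and deposited raw gene counts of uniquely mapped reads, unstranded and for each strand, so that genes with near-identical copies are undercounted. The sense counts of 6713 ORFs were used (6025 matched RefSeq). Reads on the sense strand of no annotated gene, left out of library sizes, were 18.8 to 39.1% of RNA-Seq and 0.805 to 1.58% of Ribo-Seq assignments.

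edgeR 4.0.16 (R 4.3.3) was run with TMM, filterByExpr at a minimum count of 10 and robust quasi-likelihood tests on terms for medium, TMA20 and TMA64. Translation efficiency was the interaction of assay and TMA64. Adjusted p under 0.05 was called. CPM in the text uses TMM-scaled sense libraries, and permutation tests used log2 CPM with a prior count of 2. SE was derived from the fold change and its F statistic. DESeq2 1.42.0, other filters, thinned counts, unstranded counts, subsets and omission of each lysate were tried. The scripts were tested on simulated data.

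Named genes were the anaphase-promoting complex, TMA factors, neighbours of TMA64, all calls up to a limit in each direction, and the smallest p among well-counted genes of constant sign that did not pass. The members and lists were chosen with earlier results of these data known. RNA-Seq and Ribo-Seq of a lysate are paired by the study's methods. Correlations of their residuals were 0.0399 to 0.268. For wt in YPD (replicate 1), wt in SD and Δtma64 in YPD, the correlation with another lysate was higher. It reached 0.0941, 0.141 and 0.133 in that order, beside 0.0671, 0.133 and 0.0399 within the lysate. Only wt in YPD was replicated, so that the spread includes differences between strains and media. Matplotlib 3.10.9 drew the figures.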

Additional observations from a re-analysis of the deposited data

Results flagged for a closer look

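Within the lysates with or without TMA64, a value was singled out where its gap to the nearest other exceeded Dixon's critical share of the group's range. Of 60 such groups 4 were, and chance gives about 1 in 20. Footprints of APC4 in wt in SD were 8.33 CPM beside 14.9 to 17.4 CPM in the other lysates with TMA64. Residual TMA64 footprints in ΔΔtma20tma64 in YPD were 0.777 CPM beside 0.152 to 0.23 CPM. RNA-Seq reads opposite to SIP3 were 12.3 CPM in ΔΔtma20tma64 in YPD beside 5.21 to 6.3 CPM. Footprints opposite to DRE2 were 0.119 CPM in Δtma20 in YPD, which is 1 read, and 0 in the other lysates with TMA64.

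The effect of TMA64 loss on footprints differed between TMA20 genotypes, by the interaction test, for GRE1 (1.71 on the log2 scale), SPI1 (1.51), RTC3 (1.36), PLN1 (1.07), WHI2 (1.02), NNR2 (0.99), STF2 (0.96) and TPS1 (0.93).

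Footprints on the opposite strand lay outside the main measurement. In a fit added after seeing the data, 719 ORFs were tested and 16 called (2.23%), 3 higher and 13 lower without TMA64. The higher were SIP3 (log2 fold change 5.71), YRF1-1 (4.46) and ESC1 (2.38). Opposite to ESC1 there were 5, 4, 0, 6 and 1 footprints with TMA64 and 21, 3, 28 and 13 without. Among the 13 lower, wt in SD and Δtma20 in SD, the shallowest libraries, had the highest counts for their depth in 12, and the part of depth was not tested.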

How the results depend on the processing

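Alternatives were DESeq2 size factors, the DESeq2 Wald test, no low-count filter, no robust estimation, thinned counts, omission of each lysate and, for the main comparisons, separate media or TMA20 genotypes, no TMA20 term, omission of both shallow SD lysates and unstranded counts. Scaling the opposite strand to the sense libraries and testing opposite-strand footprints were chosen after seeing the data. The fall of APC4 footprints passed in each of 21 alternatives (log2 fold change −2.54 to −1.83, largest adjusted p 0.0389). Calls in Ribo-Seq were 6 by DESeq2, 193 in SD alone, 186 without TMA20 and 3 to 5 with a lysate left out (5 without Δtma64 in SD), and in RNA-Seq 293 in SD alone. In translation efficiency they were 2 by DESeq2, 0 in SD alone, 0 with TMA20 alone and 1 to 2 with a lysate left out, and with the lysate as a replicate block 1, which changed no call. For the change of effect with medium, omissions gave 0 to 3 calls in Ribo-Seq and 0 to 1 in RNA-Seq, where DESeq2 gave 8. For the change with TMA20 in Ribo-Seq, DESeq2 gave 28, no filter 20, no robust estimation 2 and omissions 0 to 145 (34 without ΔΔtma20tma64 in YPD), and in RNA-Seq omissions gave 0 to 1. TMA64 loss less TMA20 loss gave 30 calls by DESeq2 and 2 to 15 by omission in Ribo-Seq, and 5 by DESeq2 in RNA-Seq. Opposite-strand footprints gave 16 calls. Signs were followed only for genes whose fold changes are printed, a set settled after the alternatives had been run. Named genes near zero that are given only by range were left out, and signs turned among them as well. Among the printed genes, signs turned for PDS1 (0.0173) and MRPL1 (0.0376) in SD alone and for APC9 (−0.12) with TMA20 alone. They also turned for the change of APC4 with medium without wt in SD (−0.13) or ΔΔtma20tma64 in YPD (−0.14, with omissions from −0.14 to 0.84). None of these passed in either fit. The cause of these differences was not tested. Fits on SD alone or on 1 TMA20 genotype rest on 4 or 5 lysates, and the shallow SD Ribo-Seq libraries limit low genes such as APC4, with 19 footprints in wt in SD.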
